A study of Homo sapiens with 6 samples.

Results

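SHP2 miR1 and SHP2 miR2, a pair of inducible constructs against the phosphatase SHP2, were compared directly with each other on the 4 arrays of the 6 in the series that carried them. MCF10A-HER2/3 cells, a derivative of the non-tumorigenic human breast epithelial line MCF10A, carried a doxycycline-inducible lentiviral vector with CTRL miR, SHP2 miR1 or SHP2 miR2, with 2 arrays for each of these 3 groups. All groups were grown in three-dimensional culture, received doxycycline from the day after seeding with fresh drug every 2 days, and were kept in medium with EGF, insulin, cholera toxin, hydrocortisone and horse serum until RNA was taken after 15 days. The control arrays had no weight in the direct difference and added only to its estimate of spread. They also counted in the means over all 6 arrays by which probe sets were chosen. Their levels are given beside many of the results. Every probe set of the HuGene-1_0-st-v1 array with exactly 1 gene symbol was used, and the one with the highest mean was kept where a gene had several, which gave 18377 genes. Each SHP2 miR is 1 construct, so its depth of knockdown and its sequence cannot be told apart, and nothing in the labels says that the arrays of a group came from separate cultures. The p-values thus rest on differences among the arrays themselves, possibly only technical ones.

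SHP2, encoded by PTPN11, is a tyrosine phosphatase that docks on activated receptors and their adaptor proteins through its SH2 domains and is needed for full activation of RAS and the kinase ERK. ERK switches on immediate and delayed target genes, among them its own feedback inhibitors of the Sprouty, SPRED and DUSP families. MCF10A cells depend on EGF for growth and form hollow spheres in basement membrane gel, and receptors of the HER2 and HER3 type feed into the same pathway.

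Array medians lay between 5.23 and 5.35 on a log2 scale, replicates correlated at r = 0.985 to 0.986 across genes, and arrays of SHP2 miR1 correlated with those of SHP2 miR2 at r = 0.975 to 0.979. Of 10 basal epithelial genes checked, 7 were measured and none was dim, with means from 7.88 to 11.3, and the hormone receptor genes ESR1 and PGR were both dim. A gene is called dim where its mean lay at or under 4.76, the 40th percentile of the probe sets.

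PTPN11 read 6.04 and 5.71 on the SHP2 miR1 arrays, 6.90 and 7.28 on the SHP2 miR2 arrays and 7.96 and 8.44 on the control arrays, as log2 values. The groups did not overlap, and SHP2 miR2 lay between SHP2 miR1 and control. The direct difference was 1.21 log2 units more with SHP2 miR2 (SE 0.22, 95% interval 0.73 to 1.70), or 2.32-fold, and its adjusted p of 0.0645 from limma missed the threshold of 0.05. It passed that threshold with a mean-variance trend (adjusted p = 0.00248), after median centring (adjusted p = 0.0484) and without dim genes (adjusted p = 0.0456), and missed it under the other 15 of 18 alternatives (adjusted p from 0.0537 to 0.255). Against control, PTPN11 differed by -2.32 with SHP2 miR1, which passed (adjusted p = 0.000548), and by -1.11 with SHP2 miR2, which did not (adjusted p = 0.0813). PTPN6, which encodes the related phosphatase SHP1, read 7.04 and 7.19 with SHP2 miR1, 7.40 and 7.35 with SHP2 miR2 and 7.09 and 7.03 on the control arrays, a direct difference of 0.26 (adjusted p = 0.380).

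With 2 arrays a group, few genes passed the threshold between the constructs, and the count depended on the model (446 with a mean-variance trend). Between SHP2 miR2 and SHP2 miR1, 35 of 18377 genes differed at an adjusted p under 0.05 (0.190%), of which 28 were higher with SHP2 miR2 (0.152%) and 7 were lower (0.0381%). At an unadjusted p under 0.05 3245 genes differed (17.7%), with 1602 genes higher (8.72%) and 1643 lower (8.94%). The median difference over all genes was close to 0, and the 5th and 95th percentiles were -0.50 and 0.50 log2 units. Of the 81 genes at least 1 log2 unit apart, 34 passed. In the same model 1581 genes differed between SHP2 miR1 and control (8.60%) and 68 between SHP2 miR2 and control (0.370%), and both of those comparisons use the same control arrays. The number of calls fell when any array was left out, also a control array, which has no weight in the direct difference. It fell the most without SHP2 miR2 replicate 1. Each such model leaves a group with 1 array.

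**Figure D1:**
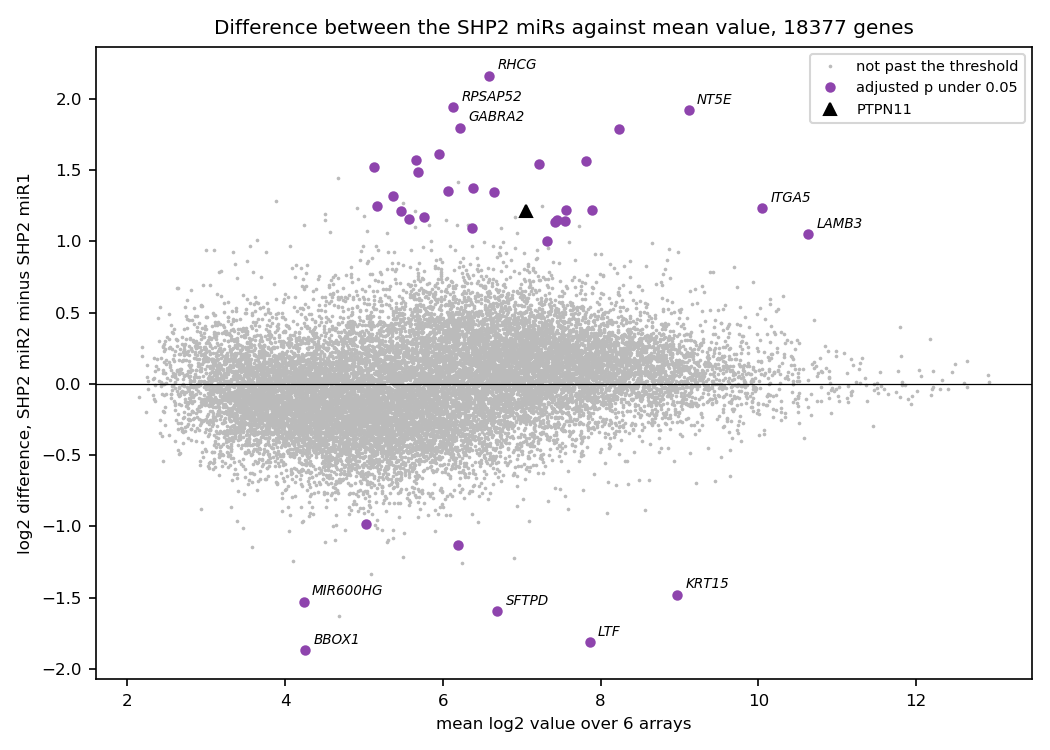
The log2 difference of SHP2 miR2 minus SHP2 miR1 (y axis) is plotted against the mean log2 value over 6 arrays (x axis) for 18377 genes, with the 35 genes past the threshold in purple and PTPN11 as a black triangle. RHCG lies highest at 2.16 and BBOX1 lowest at -1.87, and PTPN11, which did not pass, lies at 1.21.

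The genes higher with SHP2 miR2 fell into several families by known role. Feedback and output genes of receptor signalling came first. SPRY4, a Sprouty inhibitor of RAS-ERK signalling, read 5.26 and 5.16 with SHP2 miR1, 6.29 and 6.32 with SHP2 miR2 and 7.62 and 7.56 on the control arrays. The SHP2 miR groups did not overlap, and both lay under the control arrays. Its direct difference was 1.09 (SE 0.14, 2.13-fold, adjusted p = 0.0310). PHLDA1, a gene induced by ERK, read 6.56 and 6.65 with SHP2 miR1, 7.54 and 7.67 with SHP2 miR2 and 7.76 and 7.74 on the control arrays. Here the SHP2 miR2 arrays reached to just under the controls, while the SHP2 miR1 arrays stood more than 1 unit lower, with a direct difference of 1.0 (SE 0.15, 2.00-fold, adjusted p = 0.0421). EREG, which encodes the EGF receptor ligand epiregulin, was 1.13 higher with SHP2 miR2 (SE 0.15, 2.19-fold, adjusted p = 0.0337), with arrays at 6.42 and 6.36 with SHP2 miR1, 7.64 and 7.41 with SHP2 miR2 and 8.31 and 8.37 on the control arrays.

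A second set encoded proteins of the cell surface and the matrix. NT5E, the CD73 enzyme that makes adenosine from AMP outside the cell, read 7.45 and 7.40 with SHP2 miR1, 9.44 and 9.25 with SHP2 miR2 and 10.54 and 10.63 on the control arrays, a difference of 1.92 (SE 0.15, 3.79-fold, adjusted p = 0.00499). NT5E was among the brightest of the 35 genes, and its 3 groups were clearly apart. ITGA5, the alpha subunit of the fibronectin receptor, read 8.95 and 8.98 with SHP2 miR1, 10.36 and 10.04 with SHP2 miR2 and 11.05 and 10.93 on the control arrays, 1.24 higher with SHP2 miR2 (SE 0.16, 2.35-fold, adjusted p = 0.0310). LAMB3, the beta chain of laminin-332 in the epithelial basement membrane, read 9.77 and 9.72 with SHP2 miR1, 10.89 and 10.70 with SHP2 miR2 and 11.40 and 11.29 on the control arrays, 1.05 higher (SE 0.15, 2.07-fold, adjusted p = 0.0421). CNTN3, a contactin adhesion protein, was 1.54 higher (adjusted p = 0.0304), and the membrane enzyme carboxypeptidase M, encoded by CPM, was 1.25 higher (adjusted p = 0.0304).

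Receptors and channels seldom linked with breast epithelium also stood among the 28. The largest difference was that of RHCG, an ammonia transporter of epithelia. It read 4.47 and 4.77 with SHP2 miR1, 7.08 and 6.48 with SHP2 miR2 and 8.43 and 8.30 on the control arrays. RHCG was 2.16 log2 units higher with SHP2 miR2 (SE 0.21, 4.47-fold, adjusted p = 0.00545 in limma). Its SHP2 miR1 mean of 4.62 lay under the dim level, so the fold is uncertain. GABRA2, a subunit of the GABA-A receptor, read 4.65 and 4.54 with SHP2 miR1, 6.45 and 6.33 with SHP2 miR2 and 7.58 and 7.75 on the control arrays. CHRNA9, a subunit of nicotinic acetylcholine receptors, read 3.88 and 4.14 with SHP2 miR1, 5.66 and 5.33 with SHP2 miR2 and 7.41 and 7.67 on the control arrays. In all 3 genes SHP2 miR2 lay between the other groups and more than 1 log2 unit under the lower control array. The direct differences were 1.8 for GABRA2 (SE 0.15, adjusted p = 0.00499) and 1.49 for CHRNA9 (SE 0.18, adjusted p = 0.0280). TEK, the angiopoietin receptor of endothelial cells, read 4.44 and 4.39 with SHP2 miR1, 6.03 and 5.93 with SHP2 miR2 and 6.52 and 6.62 on the control arrays, 1.57 higher (SE 0.15, adjusted p = 0.00499). Of 26 markers of other cell types, 23 were measured, 10 of these were dim and TEK alone passed. Among the other endothelial markers CDH5 and VWF were dim and PECAM1 differed by -0.09, and the mean over the 23 markers lay between 5.03 and 5.12 on all 6 arrays. The blood cell marker PTPRC was dim too, and the macrophage markers CD68 at 0.57 (adjusted p = 0.142) and CSF1R at 0.67 (adjusted p = 0.158) did not pass. Means over all arrays were high for CD68 at 9.2 and for the fibroblast markers DCN at 8.3 and COL1A1 at 6.8, while the fibroblast marker LUM was dim. The part of other cells in these results was not tested.

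Regulators, secreted signals and a few genes of other kinds followed. STAT4, a transcription factor of cytokine receptors, read 5.14 and 5.38 with SHP2 miR1, 6.59 and 6.67 with SHP2 miR2 and 6.98 and 7.54 on the control arrays, 1.37 higher (SE 0.20, 2.59-fold, adjusted p = 0.0421). PRDM1, which encodes the repressor BLIMP1, read 5.39 and 5.04 with SHP2 miR1, 6.65 and 6.49 with SHP2 miR2 and 8.0 and 8.35 on the control arrays, 1.35 higher (SE 0.19, 2.54-fold, adjusted p = 0.0379). CCL20, a chemokine of epithelia under inflammatory signals, read 5.01 and 4.89 with SHP2 miR1, 6.27 and 6.34 with SHP2 miR2 and 6.66 and 7.25 on the control arrays, 1.36 higher (SE 0.20, 2.56-fold, adjusted p = 0.0421). All 3 genes were highest on the control arrays. ITPKA, a kinase of inositol trisphosphate that also bundles actin, was 1.79 higher (SE 0.17, 3.45-fold, adjusted p = 0.00499) and read 6.86 and 7.02 with SHP2 miR1, 8.86 and 8.59 with SHP2 miR2 and 9.15 and 8.90 on the control arrays, so that SHP2 miR2 sat just under control. SPX, the peptide hormone spexin, was 1.61 higher (adjusted p = 0.00499) and INSC, an adaptor that orients the mitotic spindle, 1.57 higher (adjusted p = 0.00711). RPSAP52, a pseudogene transcript related to the ribosomal protein RPSA, was 1.94 higher (adjusted p = 0.00499), a value that is uncertain where the probes also read its close relatives. EVI2B, a membrane protein of blood cells whose gene lies inside an intron of NF1, read 4.19 and 4.10 with SHP2 miR1, 5.36 and 5.97 with SHP2 miR2 and 5.36 and 5.76 on the control arrays. Its SHP2 miR2 and control arrays overlapped, and the direct difference was 1.52 (SE 0.22, adjusted p = 0.0421).

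The remaining 8 of the 28 fell outside the naming rule and were named after their values were seen. They included the endocytic adaptor DAB2 at 1.32 (adjusted p = 0.0304), the lipid transfer proteins PITPNC1 at 1.22 (adjusted p = 0.0421) and OSBP2 at 1.22 (adjusted p = 0.0337), and ELOVL4, an elongase of very long fatty acids, at 1.17 (adjusted p = 0.0421). EFL1, a GTPase that acts in the maturation of large ribosomal subunits, stood at 1.15 (adjusted p = 0.0304), and ASAP2, which switches off ARF GTPases, at 1.14 (adjusted p = 0.0421). DEPP1, a FOXO target, stood at 1.15 (adjusted p = 0.0398) and TMEM156, a membrane protein, at 1.22 (adjusted p = 0.0379). None of the 28 was dim by its mean over 6 arrays, but in 9 of them, RPSAP52, GABRA2, TEK, EVI2B, CHRNA9, DAB2, CPM, TMEM156 and EFL1, both SHP2 miR1 arrays lay at or under the dim level, and no fold is given for these. In the 28 genes both SHP2 miR2 arrays lay above both SHP2 miR1 arrays, as in 26.4% of all genes tested (51.7% in either direction). The 28 were picked by a test on these same arrays, so this adds no support.

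**Figure D2:**
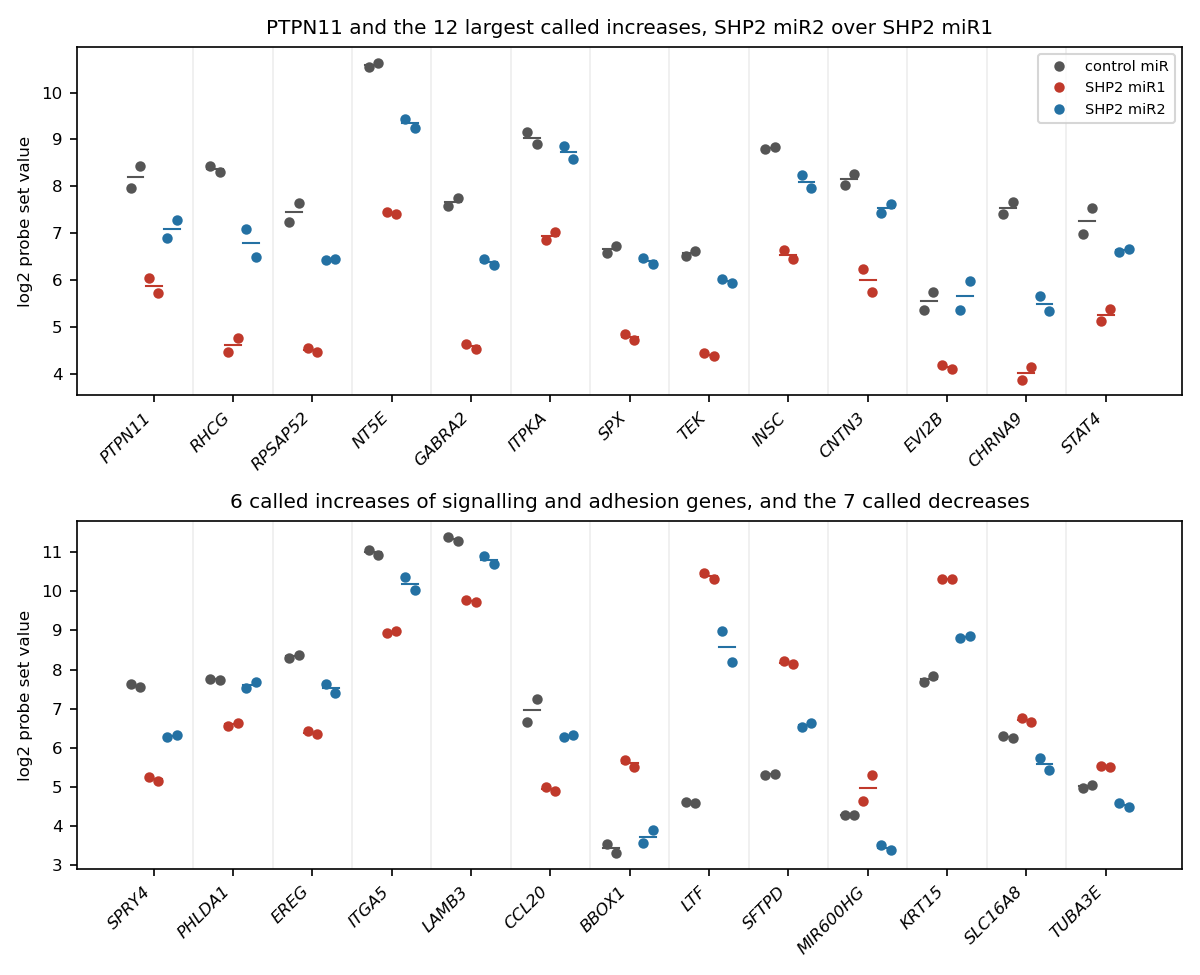
Each point is the log2 value (y axis) of 1 array and each short line a group mean, for PTPN11 and the 12 largest increases (upper panel) and for 6 signalling and adhesion genes and the 7 decreases (lower panel), with CTRL miR in grey, SHP2 miR1 in red and SHP2 miR2 in blue. The SHP2 miR1 and SHP2 miR2 points do not overlap in any gene shown, and for NT5E the groups stand at means of 10.6 (control), 7.42 (SHP2 miR1) and 9.35 (SHP2 miR2).

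The 7 genes lower with SHP2 miR2 included a pair of secreted defence proteins, a keratin and, with the largest difference, BBOX1. LTF, the iron-binding milk protein lactoferrin, read 10.48 and 10.31 with SHP2 miR1, 8.98 and 8.19 with SHP2 miR2 and 4.62 and 4.6 on the control arrays, 1.81 log2 units apart with the higher level in SHP2 miR1 (SE 0.24, 3.51-fold, adjusted p = 0.0304). Both SHP2 miR groups stood well over the controls. SFTPD, the collectin surfactant protein D, read 8.21 and 8.14 with SHP2 miR1, 6.53 and 6.63 with SHP2 miR2 and 5.31 and 5.34 on the control arrays, a difference of -1.60 (SE 0.14, 3.02-fold, adjusted p = 0.00499). KRT15, a keratin of basal and progenitor cells in stratified and glandular epithelia, read 10.31 and 10.32 with SHP2 miR1, 8.81 and 8.86 with SHP2 miR2 and 7.69 and 7.83 on the control arrays, a difference of -1.48 (SE 0.15, 2.79-fold, adjusted p = 0.00545). In these 3 genes SHP2 miR1 was farthest from control and SHP2 miR2 lay between. BBOX1, the last enzyme of carnitine synthesis, was dim by its mean over all arrays and read 5.70 and 5.51 with SHP2 miR1, 3.57 and 3.90 with SHP2 miR2 and 3.56 and 3.31 on the control arrays, so that the difference of -1.87 (SE 0.18, adjusted p = 0.00499) came with SHP2 miR2 arrays close to control. On the SHP2 miR2 arrays BBOX1, MIR600HG and TUBA3E lay under the dim level, and no fold is given for them.

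In the other 3 decreases and in CPM the control arrays lay between the SHP2 miR groups. SLC16A8, a lactate transporter, read 6.76 and 6.67 with SHP2 miR1, 5.75 and 5.43 with SHP2 miR2 and 6.31 and 6.25 on the control arrays, a difference of -1.13 (SE 0.16, 2.19-fold, adjusted p = 0.0421). MIR600HG, a microRNA host transcript, was dim and read 4.64 and 5.31 with SHP2 miR1, 3.52 and 3.38 with SHP2 miR2 and 4.28 and 4.29 on the control arrays, a difference of -1.53 (SE 0.21, adjusted p = 0.0379). TUBA3E, an alpha tubulin whose near-identical copies make its own level uncertain, read 5.53 and 5.51 with SHP2 miR1, 4.58 and 4.5 with SHP2 miR2 and 4.99 and 5.05 on the control arrays, a difference of -0.98 (SE 0.14, adjusted p = 0.0421). For CPM the arrays were 4.41 and 4.49 with SHP2 miR1, 5.75 and 5.65 with SHP2 miR2 and 5.20 and 5.51 on the control arrays.

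Against control, the values of some of the 35 genes stood side by side as follows. NT5E differed from control by -3.16 with SHP2 miR1 (adjusted p = 3.88e-05) and -1.24 with SHP2 miR2 (adjusted p = 0.0127), and SPRY4 by -2.38 with SHP2 miR1 (adjusted p = 6.59e-05) and -1.29 with SHP2 miR2 (adjusted p = 0.00972). LTF differed by 5.78 with SHP2 miR1 (adjusted p = 2.24e-05) and 3.97 with SHP2 miR2 (adjusted p = 0.000639), and KRT15 by 2.56 with SHP2 miR1 (adjusted p = 5.27e-05) and 1.08 with SHP2 miR2 (adjusted p = 0.0210). In these 4 genes both SHP2 miRs passed against control, as in RHCG, GABRA2, CHRNA9, PRDM1 and SFTPD. SHP2 miR2 did not pass against control in any other of the 35 genes. ITGA5 differed by -2.03 with SHP2 miR1 (adjusted p = 0.000326) and -0.80 with SHP2 miR2 (adjusted p = 0.0917), so that SHP2 miR1 alone passed, as in CPM at -0.90 with SHP2 miR1 (adjusted p = 0.0128) and 0.34 with SHP2 miR2 (adjusted p = 0.478). SLC16A8 passed on neither side, at 0.44 with SHP2 miR1 (adjusted p = 0.122) and -0.69 with SHP2 miR2 (adjusted p = 0.140).

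**Figure D3:**
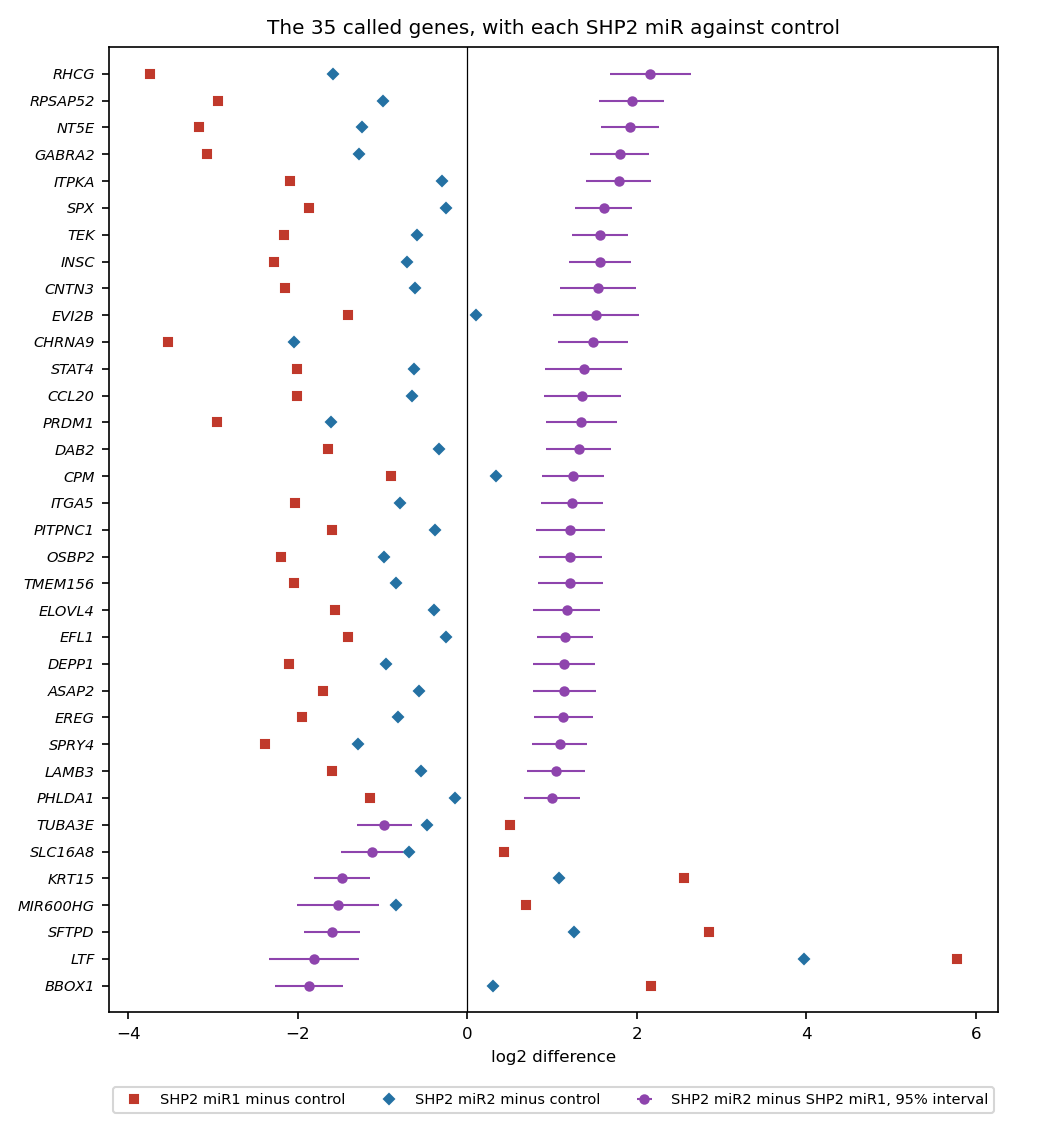
For each of the 35 genes (y axis) the log2 difference (x axis) is shown for SHP2 miR2 minus SHP2 miR1 as a purple point with its 95% interval, for SHP2 miR1 minus control as a red square and for SHP2 miR2 minus control as a blue diamond. The squares run from -3.75 for RHCG to 5.78 for LTF, and for CPM, MIR600HG, SLC16A8 and TUBA3E the square and the diamond lie on opposite sides of 0.

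Brightness and gene span moved with the direct difference over all genes. From the dimmest to the brightest of 4 equal classes of genes the median difference was -0.0821, -0.129, 0.069 and 0.105, and from the shortest to the longest of 4 classes by genomic span it was -0.0934, -0.0267, 0.0577 and 0.0794. The 28 higher genes had a median span of 49.5 kb, the 7 lower genes 6.7 kb and all genes 24.5 kb. With the span trend removed 40 genes passed, 34 of them among the 35, and after cyclic loess, which levels differences over brightness, 29 passed, 25 of them among the 35. Of the list medians given next, that of ERK outputs was 0.26 after cyclic loess and 0.40 with the span trend removed, and that of secreted defence proteins -0.21 and -0.25.

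Lists of genes by function were described by their counts and medians, beside a median of 0.00029 over all genes. Of 24 measured ERK outputs, SPRY4 and PHLDA1 passed, both higher, and 11 were higher and 1 was lower at an unadjusted p under 0.05, against 8.72% and 8.94% of all genes. The list median was 0.35, the highest of the 45 lists, and its medians against control were -0.94 and -0.33 for SHP2 miR1 and SHP2 miR2. Transcription factor ETV1 at 0.84 (adjusted p = 0.0864), the ERK phosphatases DUSP4 at 0.79 (adjusted p = 0.0966) and DUSP6 at 0.71 (adjusted p = 0.141), and the receptor EPHA2 at 0.76 (adjusted p = 0.0978) did not pass. EGR3, an immediate early factor, went the other way at -0.63 (adjusted p = 0.127). Of the 14 ERBB receptors and their ligands, EREG passed, while the median was -0.01 and turned positive under each other scaling. ERBB2 at 0.52 (adjusted p = 0.145) and ERBB3 at 0.38 (adjusted p = 0.234) did not pass, and EGFR differed by -0.09. Among 19 SHP2 partners and RAS-ERK proteins none passed, including MAP2K1, the kinase MEK1, at 0.69 (adjusted p = 0.115).

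No gene of the growth lists passed the threshold, and their medians differed in sign. Of all genes 50.04% were above 0. The brighter classes of all genes leaned positive, at medians of 0.069 and 0.105. The part of brightness in the counts above 0 given here was not tested. In ribosome biogenesis and MYC targets 25 of 27 members were above 0. The median was 0.27 (0.17 after quantile normalization and 0.17 after cyclic loess). At an unadjusted p under 0.05, 5 were higher (18.5%) and none lower, against 8.72% and 8.94% of all genes. DDX21, a nucleolar helicase, stood at 0.46 (adjusted p = 0.205), and POLR1B, a subunit of RNA polymerase I, at 0.46 (adjusted p = 0.198). Of 33 mitosis genes 29 were above 0 with a median of 0.25, among them the checkpoint kinase BUB1 at 0.55 (adjusted p = 0.142 in limma). The array medians of this list had a replicate SD of 0.139, with replicate 2 above replicate 1 in each group. The 23 ribosomal proteins had a median of -0.07 and the 30 genes of the respiratory chain -0.01, with none past even the unadjusted threshold in either list, and both medians turned positive after median centring. S phase genes had a median of 0.06, which changed sign when an array was left out, and 11 of 17 cell cycle inhibitors and D cyclins were above 0.

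Lists of adhesion and matrix genes differed in their medians. LAMB3 passed among 10 measured genes of laminin-332 and the hemidesmosome, whose median was 0.27, and the laminin-binding integrins ITGA3, ITGA2 and ITGA6 stood at 0.41, 0.48 and 0.36 without passing. ITGA5 passed among 30 mesenchymal genes, of which 10 were higher (33.3%) and 2 lower (6.67%) at an unadjusted p under 0.05. Over all genes these shares were 8.72% and 8.94%. SNAI2, the repressor SLUG, stood at 0.84 (adjusted p = 0.101) and LOXL2, a collagen crosslinking enzyme, at 0.72 (adjusted p = 0.121). In the TGF-beta list none of 30 passed, and 10 were higher (33.3%) and 2 lower (6.67%) at an unadjusted p under 0.05, with a median of 0.19. The pathway inhibitors BAMBI at 0.96 (adjusted p = 0.0611) and SKIL at 0.86 (adjusted p = 0.0633) came closest, and FST, the activin inhibitor follistatin, stood at -0.89 (adjusted p = 0.0993). Proteases and plasmin genes had 7 of 27 higher (25.9%) and 1 lower (3.7%) at an unadjusted p under 0.05. Among the higher were the collagenase MMP1 at 0.68 (adjusted p = 0.105 in limma) and PLAU, the urokinase, at 0.49 (adjusted p = 0.167). None of 31 collagens and matrix proteins passed, with a median of -0.04, nor any of 21 desmosome and adherens junction genes, with a median of -0.01, and the signs of both changed with the scaling. NT5E passed among 28 YAP-TAZ targets, whose median was near 0 (0.0042).

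**Figure D4:**
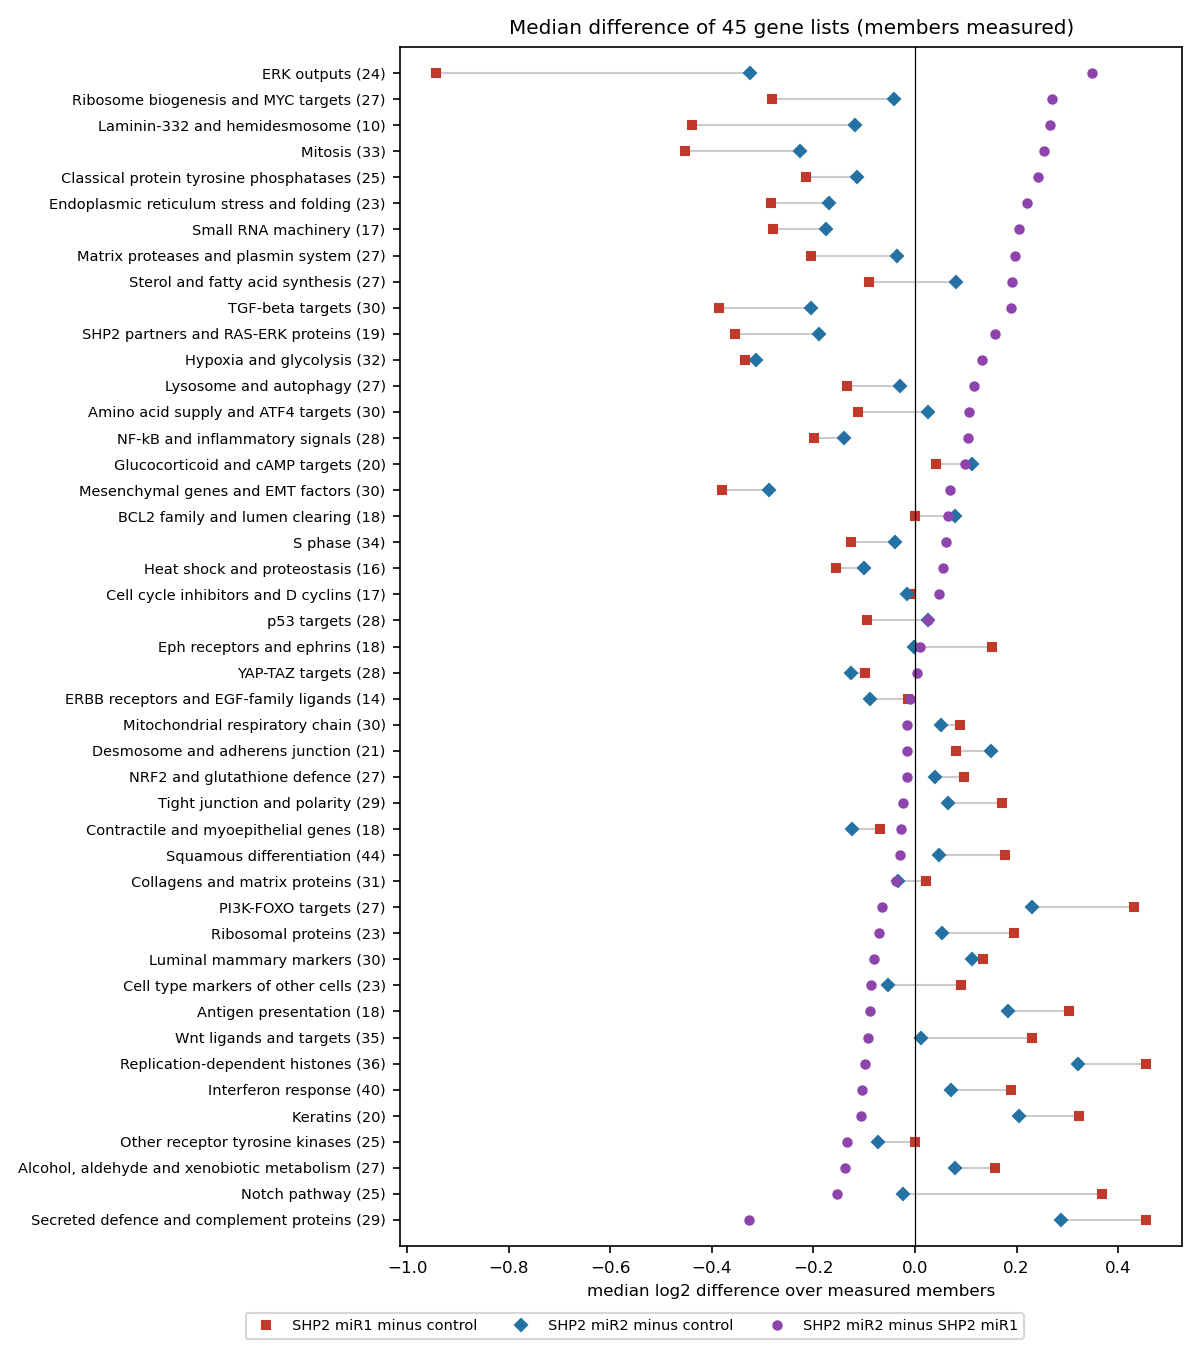
For each of 45 gene lists (y axis, with the number of members measured) the median log2 difference (x axis) is shown for SHP2 miR2 minus SHP2 miR1 in purple, SHP2 miR1 minus control in red and SHP2 miR2 minus control in blue. ERK outputs stand at the top with 0.35 and secreted defence and complement proteins at the bottom with -0.33.

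At the other end stood the secreted defence and complement proteins. LTF and SFTPD passed, both lower with SHP2 miR2. At an unadjusted p under 0.05, 12 of 29 members were lower (41.4%) and 3 higher (10.3%), against 8.94% and 8.72% of all genes. The list median was -0.33 (-0.22 after quantile normalization and -0.21 after cyclic loess), with 0.46 and 0.29 for SHP2 miR1 and SHP2 miR2 against control. The complement proteases C1S at -1.22 (adjusted p = 0.0511) and C1R at -0.91 (adjusted p = 0.0557), and the chitinase-like protein CHI3L1 at -0.96 (adjusted p = 0.0536), fell just outside the threshold. C1S read 8.47 and 8.26 with SHP2 miR1, 7.07 and 7.21 with SHP2 miR2 and 4.99 and 5.44 on the control arrays, so that both SHP2 miR groups stood over the controls and SHP2 miR1 the farther. Among 20 keratins KRT15 passed, and 5 were lower (25%) and none higher at an unadjusted p under 0.05. KRT10, a keratin of differentiating skin, stood at -0.75 (adjusted p = 0.139 in limma). Luminal mammary markers, a list that shares KRT15 and LTF, had 6 of 30 lower (20%) and 1 higher (3.33%) at that level. Their median was -0.08, which turned positive after median centring. The luminal factor EHF stood at -0.84 (adjusted p = 0.100).

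Squamous differentiation genes split. RHCG and PRDM1 passed, both higher. At an unadjusted p under 0.05, 6 of 44 were higher (13.6%) and 7 lower (15.9%), against 8.72% and 8.94% of all genes. The peptidase inhibitor SPINK6 at 1.27 (adjusted p = 0.0633) and the kallikrein KLK6 at -0.99 (adjusted p = 0.0735) were the nearest in each direction. The median of -0.03 changed sign with the scaling.

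Inflammatory and interferon genes were described separately. CCL20 passed among 28 NF-kB and inflammatory genes, with the cytokines IL1B at 0.87 (adjusted p = 0.0662) and IL1A at 0.77 (adjusted p = 0.166) and the chemokine CXCL8 at 0.50 (adjusted p = 0.225) not passing. None of 40 interferon response genes passed. At an unadjusted p under 0.05, 5 were lower (12.5%) and 1 higher (2.5%), against 8.94% and 8.72% of all genes. The antiviral sensor OAS1 stood at -0.86 (adjusted p = 0.0626 in limma). The interferon median of -0.10 was -0.02 after median centring and changed sign when an array was left out.

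Metabolic lists held no gene past the threshold. Of 32 hypoxia and glycolysis genes 8 were higher (25%) and none lower at an unadjusted p under 0.05, against 8.72% and 8.94% of all genes. ANGPTL4, a lipase inhibitor, stood at 0.99 (adjusted p = 0.0565 in limma) and the enolase ENO2 at 0.78 (adjusted p = 0.0935). The direct median of the list was 0.13 (0.06 after quantile normalization and 0.05 after cyclic loess). The list medians against control were -0.33 and -0.31 for SHP2 miR1 and SHP2 miR2. Sterol and fatty acid genes were above 0 in 24 of 27, against 50.04% of all genes. Their median was 0.19 (0.12 after quantile normalization and 0.10 after cyclic loess). Endoplasmic reticulum folding genes had 9 of 23 higher (39.1%) and 1 lower (4.35%) at an unadjusted p under 0.05. Among the higher were the chaperone HSPA5 at 0.45 (adjusted p = 0.200 in limma) and its partner DNAJC3 at 0.59 (adjusted p = 0.133). Alcohol, aldehyde and xenobiotic genes had 8 of 27 lower (29.6%) and 3 higher (11.1%) at that level. The lower genes were led by the alcohol dehydrogenase ADH1A at -1.08 (adjusted p = 0.0645 in limma) and the dioxin receptor AHR at -0.92 (adjusted p = 0.0665). The ADH1 copies are close in sequence, which makes their separate values uncertain. Notch pathway genes had a median of -0.15 (-0.07 after median centring), and 0.37 and -0.02 against control, with none of 25 past the threshold.

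**Figure D5:**
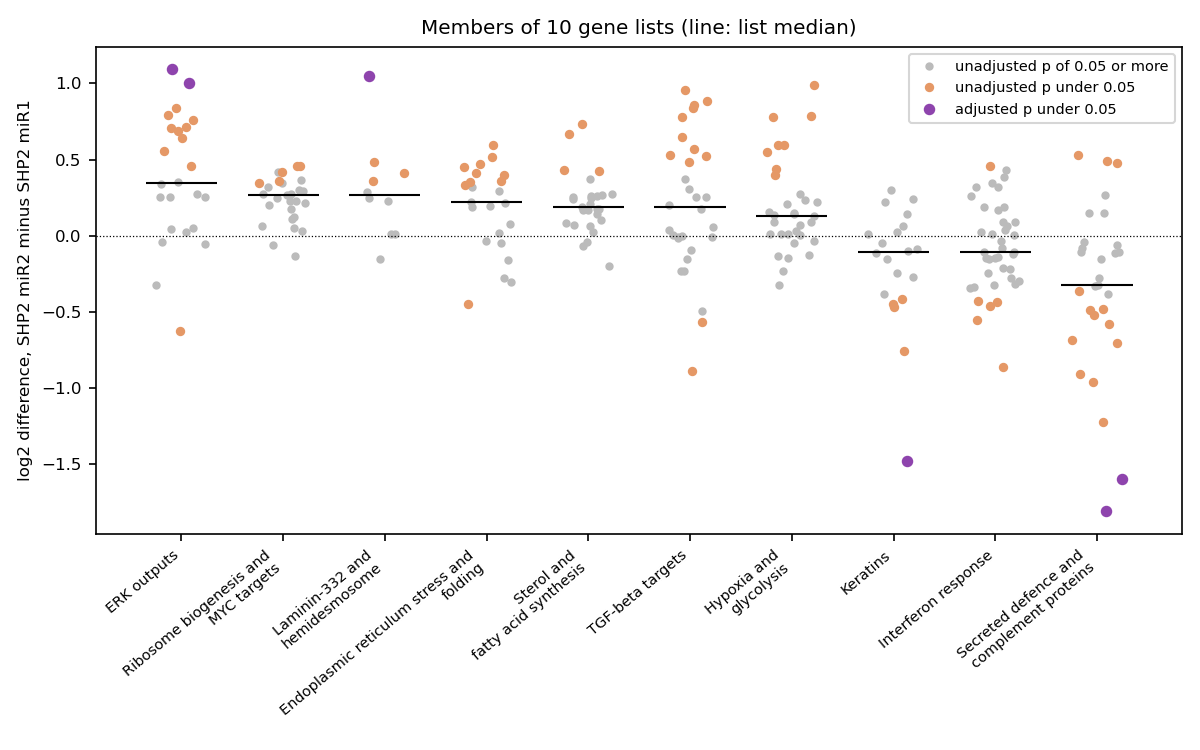
Each point is the log2 difference of SHP2 miR2 minus SHP2 miR1 (y axis) of 1 gene in 10 of the lists (x axis), with purple for an adjusted p under 0.05, orange for an unadjusted p under 0.05 and a line at the list median. In ERK outputs SPRY4 lies at 1.09 and PHLDA1 at 1.0, and in secreted defence proteins LTF lies at -1.81 and SFTPD at -1.60.

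Since both constructs are microRNA-like hairpins, genes that process and use small RNAs were also examined. Of 17 measured genes of this machinery none passed and 1, the slicer AGO2, did so at an unadjusted p under 0.05, with 0.33 (adjusted p = 0.273). Of 155 microRNA genes tested 110 were dim and none passed limma's test. At an unadjusted p under 0.05, 9 were higher and 31 lower, against 8.72% and 8.94% of all genes. The dimmer classes of all genes leaned negative too, at medians of -0.0821 and -0.129, and the part of brightness in these counts was not tested. Named after its value was seen, MIR21, which encodes a microRNA abundant in epithelial tumours, stood at 1.25 (adjusted p = 0.0626), with arrays of 6.54 and 6.07 with SHP2 miR1, 7.57 and 7.53 with SHP2 miR2 and 7.71 and 8.16 on the control arrays. The probe set reads the transcript and not the mature form, whose sequence in RefSeq (GRCh38.p14, chr17:59841273-59841294, plus strand) is shown with the seed, bases 2 to 8, in capitals.
hsa-miR-21-5p: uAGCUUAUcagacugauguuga

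Promoters were read for the genes that passed, since ERK acts on many targets through AP-1 factors and CCL20 is a known NF-kB target. RefSeq promoters were matched for 25 of the 28 higher and 6 of the 7 lower genes, and the 250 bases before the start were searched on both strands. The AP-1 letters TGANTCA occurred in 4 of the 25 (16%), which were INSC, STAT4, OSBP2 and TMEM156, in 2 of the 6, SFTPD and BBOX1, and in 6.6% of all 27305 promoters. The NF-kB motif, searched as GGG, any 2 bases, TT, any 1 base and CC, occurred in CCL20, PRDM1, DAB2 and PITPNC1 (16%), in none of the 6 and in 5.08% of all. With so few promoters these shares describe the genes and carry no test. The sequences of 5 genes are shown from GRCh38.p14, with the matches in capitals, to show where the letters lie in a gene of each kind.
INSC, AP-1, chr11:15112174-15112423, plus strand: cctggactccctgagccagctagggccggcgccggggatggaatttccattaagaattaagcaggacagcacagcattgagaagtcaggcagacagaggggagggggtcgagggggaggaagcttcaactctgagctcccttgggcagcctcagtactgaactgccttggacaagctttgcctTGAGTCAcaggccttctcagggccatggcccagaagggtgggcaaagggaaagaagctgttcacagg
TMEM156, AP-1, chr4:39032410-39032659, minus strand: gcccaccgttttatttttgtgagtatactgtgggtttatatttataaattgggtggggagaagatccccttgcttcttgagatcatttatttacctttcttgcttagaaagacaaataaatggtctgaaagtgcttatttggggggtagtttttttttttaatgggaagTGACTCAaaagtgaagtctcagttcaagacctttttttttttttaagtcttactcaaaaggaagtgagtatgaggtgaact
SFTPD, AP-1, chr10:79949106-79949355, minus strand: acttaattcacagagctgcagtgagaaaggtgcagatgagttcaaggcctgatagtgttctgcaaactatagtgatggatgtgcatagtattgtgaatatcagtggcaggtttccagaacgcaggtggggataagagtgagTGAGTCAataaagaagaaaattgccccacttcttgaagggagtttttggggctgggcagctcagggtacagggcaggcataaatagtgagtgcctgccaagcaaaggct
CCL20, NF-kB, chr2:227813592-227813841, plus strand: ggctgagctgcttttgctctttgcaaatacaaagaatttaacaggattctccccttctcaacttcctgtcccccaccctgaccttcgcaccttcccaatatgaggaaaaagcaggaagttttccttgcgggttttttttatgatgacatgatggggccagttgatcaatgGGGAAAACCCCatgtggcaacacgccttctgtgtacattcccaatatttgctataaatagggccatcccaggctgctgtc
PRDM1, NF-kB, chr6:106086086-106086335, plus strand: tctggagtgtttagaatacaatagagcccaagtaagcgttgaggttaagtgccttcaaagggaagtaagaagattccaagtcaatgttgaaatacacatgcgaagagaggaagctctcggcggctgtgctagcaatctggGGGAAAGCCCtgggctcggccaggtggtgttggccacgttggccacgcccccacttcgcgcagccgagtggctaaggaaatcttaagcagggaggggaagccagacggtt

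INSC, TMEM156, CCL20 and PRDM1 were higher with SHP2 miR2 and SFTPD was lower, so the AP-1 letters stood in genes of both directions. Of the other motifs searched, the hypoxia element ACGTG was held by 20% of the higher genes and 18.7% of all promoters, the antioxidant element TGACNNNGC by 20% and 11%, and the cell cycle element TTTGAA by 12% and 13.6%. The E2F letters TTTNGCGC and the interferon-stimulated response element, searched as a pair of GAAA stretches with any 2 bases between them, were in 0% of the genes that passed, against 1.54% and 3.07% of all.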

How the data were processed

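The 6 arrays were made from total RNA, per the labels. The deposited table holds the authors' summarised expression per probe set in log2 units, base 2 being inferred from the range; R 2.10 and oligo 1.8 are named in the submitters' processing notes. The steps of background correction and normalization, and the genome build, are not stated in the sources used here. Of 28869 probe sets, 19310 had 1 symbol in the platform annotation, 1752 several and 7807 none, and 19279 matched RefSeq. For 685 genes with several probe sets the brightest was kept. A linear model of the 3 groups was fitted with limma 3.58.1 in R 4.3.3 (3 residual and 6.10 prior degrees of freedom), with two-sided p-values adjusted by Benjamini-Hochberg over 18377 genes at a threshold of 0.05. Unless another fit is named, adjusted p-values come from this model, without the replicate number as a block. The scripts were tested on simulated data. Differences are SHP2 miR2 minus SHP2 miR1 on the log2 scale.

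The genes and the 45 lists were chosen with earlier results of these data known. Named genes were PTPN11 and PTPN6, the 12 largest increases and decreases past the threshold whose SHP2 miR arrays do not overlap, up to 5 in each direction for each position of the controls, and up to 4 passing members of each list by smallest p, or 2 as values where none passed; further list members were named after their values were seen. Alternatives were a mean-variance trend, a robust prior, array weights, the 4 arrays alone, a replicate block, a minimum difference of 1, other scalings, other treatment of probe sets, leaving out dim genes and each array, and, added after seeing the data, removal of a trend over gene span. Over all genes, same-numbered arrays of SHP2 miR1 and SHP2 miR2 did not deviate together (r = 0.0134), though in some lists they did. The number of arrays limits the precision.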

Additional observations from a re-analysis of the deposited data

Results flagged for a closer look

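In 4 of the 35 genes the SHP2 miRs lay on opposite sides of both control arrays. The direct difference was 1.25 for CPM, -1.53 for MIR600HG, -1.13 for SLC16A8 and -0.98 for TUBA3E. CPM differed from control by -0.90 with SHP2 miR1 (adjusted p = 0.0128) and 0.34 with SHP2 miR2 (adjusted p = 0.478), and MIR600HG by 0.69 with SHP2 miR1 (adjusted p = 0.0775) and -0.84 with SHP2 miR2 (adjusted p = 0.171). SLC16A8 differed by 0.44 with SHP2 miR1 (adjusted p = 0.122) and -0.69 with SHP2 miR2 (adjusted p = 0.140), and TUBA3E by 0.50 with SHP2 miR1 (adjusted p = 0.0637) and -0.48 with SHP2 miR2 (adjusted p = 0.255). In limma CPM with SHP2 miR1 alone passed against control, and in none of the 4 genes did both sides pass.

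In a separate limma fit of all 28869 probe sets, adjusted over all of them, 12 passed the threshold. Of these, 11 belonged to genes among the 35. Among 9559 probe sets with no or several symbols, which were not among the genes tested above, 1 passed in that fit (0.0105%). This share is not on the same footing as that of the gene fit. It read 4.08 and 4.29 with SHP2 miR1, 2.34 and 2.57 with SHP2 miR2 and 3.31 and 3.52 on the control arrays. The difference was -1.73 (SE 0.17, adjusted p = 0.0183 in limma), with the controls between the groups. All of its arrays lay under the dim level of 4.76, and no fold is given for it.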

How the results depend on the processing

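None of the 35 genes changed sign under any alternative run. The count of 35 genes (28 higher, 7 lower) was 446 (321, 125) with a mean-variance trend, 95 (70, 25) without dim genes, 69 (62, 7) after median centring, 55 (42, 13) with array weights, 45 (34, 11) after quantile normalization, 12 (9, 3) in a model of the 4 SHP2 miR arrays alone and 12 (8, 4) over every probe set. Against a minimum difference of 1 log2 unit it was 0 (0, 0) in limma, with 20 at an unadjusted p under 0.05. The 35 genes all passed with the trend, array weights and median centring. Leaving out each array gave 0 to 15 genes, 0 to 11 higher and 0 to 4 lower. Without SHP2 miR2 replicate 1 the lowest adjusted p among the 35 genes was 0.0559, for LTF. Apart from the minimum difference, 9 genes (RHCG, RPSAP52, NT5E, GABRA2, ITPKA, SPX, TEK, SFTPD and BBOX1) missed the threshold in that setting alone, BBOX1 having no value without dim genes. A group left with 1 array was assumed to vary like the others. The causes were not tested.

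Over all genes, same-numbered arrays deviated together only weakly (r from 0.0134 to 0.14). In the mitosis and S phase lists, though, the median of replicate 2 lay above that of replicate 1 in each group. The part of the replicate number in these lists was not tested. With a replicate block 12 genes passed (8 higher, 4 lower), with PTPN11 at 1.21 (adjusted p = 0.0968 in limma). The PTPN11 difference passed at 1.21 with a mean-variance trend, at 1.3 after median centring and at 1.21 without dim genes, and lay between 1.02 and 1.41 when each array was left out. Of the 45 list medians 31 kept their sign under quantile, median and cyclic loess scaling, and 27 also when each array was left out.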
